A study of Mus musculus with 12 samples.

Results

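The transcripts described here are 8 CC chemokine ligands that recruit monocytes, macrophages and eosinophils, namely Ccl2, Ccl3, Ccl4, Ccl7, Ccl8, Ccl11, Ccl12 and Ccl24, together with the 2 receptors Ccr2 and Ccr3. They are a list of gene symbols, chosen with earlier results of these data known, and make up 10 of the 54532 genes counted. Of these 10 genes, 9 passed the filter on low counts that left 17658 genes in the tests, and Ccr3 did not. The study asked how ursolic acid (UA), a plant triterpenoid given by mouth, altered colitis caused by dextran sulfate sodium (DSS), a polymer in the drinking water that injures the colon epithelium. Colon RNA was sequenced from 12 male C57BL/6 mice that were 6 weeks old on arrival, with 3 of the 8 mice of each of 4 groups. The Con group was labelled untreated and, by the study's methods, received the gavage vehicle. The DSS group received 3% (w/v) DSS for 5 days and the vehicle. The UA+DSS group received the same DSS and 200 mg/kg UA once a day for 7 days, starting 1 day before DSS. The DSS+UA group received the same DSS and 200 mg/kg UA once a day for 4 days, starting 3 days after DSS began. No group received UA without DSS, so the comparisons describe UA only on top of DSS. The p-values below measure the spread between the 3 mice sequenced per group.

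CC chemokines are small secreted proteins that draw leukocytes along a gradient through G protein-coupled receptors. Ccl2, Ccl7, Ccl8 and Ccl12 belong to the monocyte chemoattractant family, and Ccr2 is the receptor by which classical monocytes leave the bone marrow and enter inflamed gut. Ccl3 and Ccl4 are the macrophage inflammatory proteins, made by activated myeloid cells, and Ccl3 is read by Ccr1. Ccl11 and Ccl24 are the eotaxins, which act through Ccr3 on eosinophils, a cell type that resides in the healthy intestine. The RNA came from whole colon tissue, so fewer cells of a type and less RNA per cell cannot be told apart.

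On the scale of reads per kilobase of exon, scaled to library size (RPKM), which allows genes to be compared, Ccl8 and Ccl11 were the most abundant members in Con colon at mean levels of 20.9 ± 8.54 and 17.6 ± 7.02 RPKM (SD, n = 3). The other members stood at or below 1.79 RPKM there. In the DSS group the mean RPKM was 201 ± 326 for Ccl3 and 178 ± 281 for Ccl4, with SDs above their means, then 105 ± 94.2 for Ccl8, 85.2 ± 35.6 for Ccl11, 37.2 ± 15.2 for Ccl7 and 33.9 ± 17.4 for Ccl2. Ccl12, Ccr2, Ccl24 and Ccr3 followed at 6.70, 6.47, 0.816 and 0.128 RPKM. All other levels below are in CPM, the read count scaled to library size with TMM factors, which compares the same gene between libraries, and fold changes are fitted log2 differences with their SE. A gene was called where edgeR's quasi-likelihood test gave a Benjamini-Hochberg adjusted p under 0.05 over all 17658 genes.

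**Figure D1:**
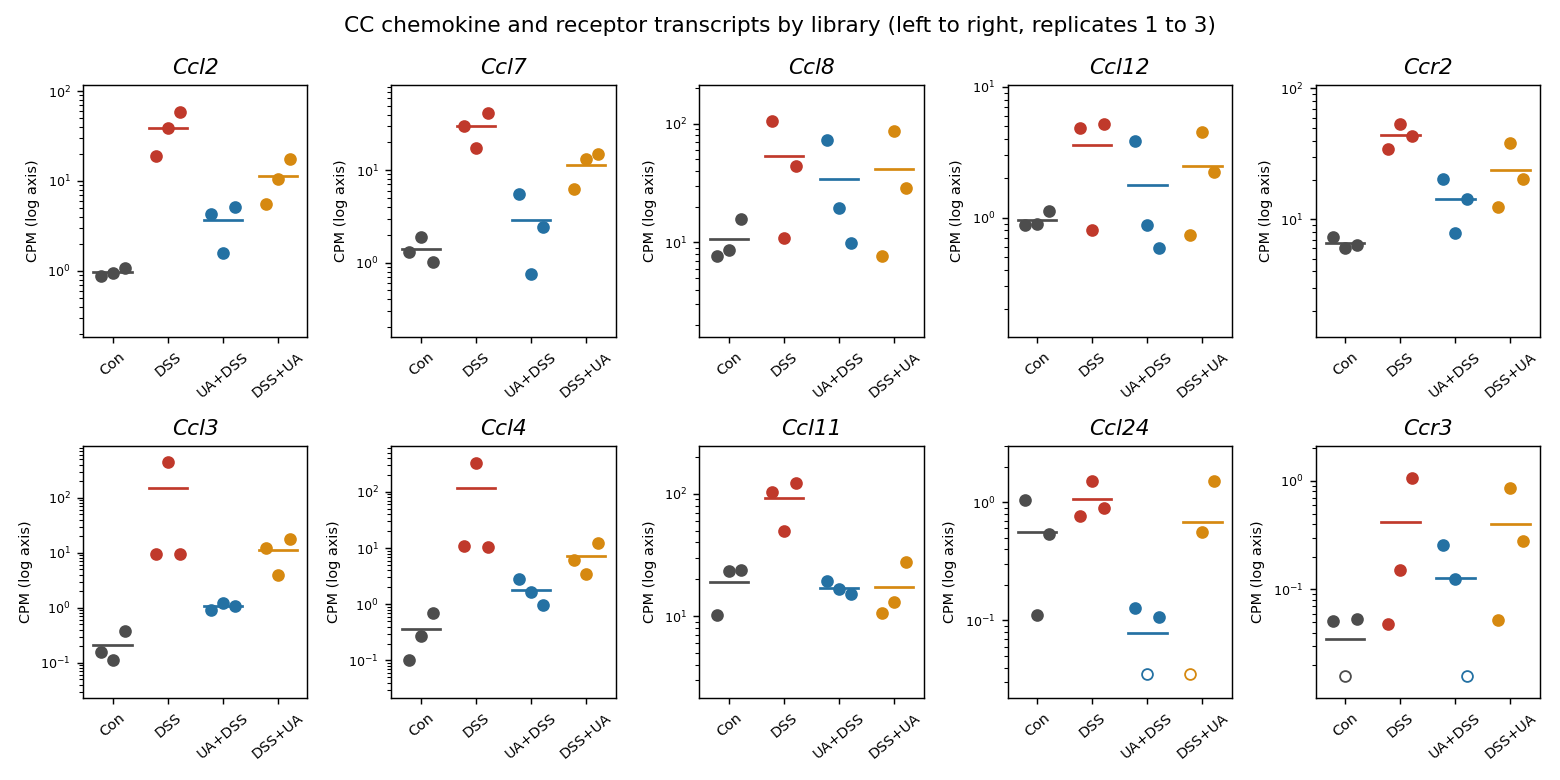
Level of each of the 10 transcripts in the 12 libraries, in CPM on a log axis, with the replicates of a group from left to right, a horizontal line at the group mean, and open circles near the lower edge for libraries with 0 counts. Ccl2, Ccl7 and Ccr2 sat above Con in all 3 DSS libraries, Ccl3 and Ccl4 had 1 DSS library far above the other 2, and Ccl8 and Ccl12 spread widely inside each DSS-treated group.

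DSS raised the monocyte chemoattractants Ccl2 and Ccl7 and their receptor Ccr2. Ccl2 measured 0.879, 0.943 and 1.07 CPM in the Con libraries and 18.9, 38.3 and 58.4 CPM in the DSS libraries. Every DSS library was above every Con library, and the fitted rise was 5.31 ± 0.62 on the log2 scale, or 39.7-fold (edgeR adjusted p = 0.00132). Ccl7, which signals through the same receptor, measured 1.29, 1.89 and 1.02 CPM in Con and 30.2, 17.4 and 41.8 CPM in DSS. Its groups did not overlap either, and the rise was 4.41 ± 0.67 (log2), or 21.2-fold (edgeR adjusted p = 0.00275). Ccr2 rose from 7.40, 6.05 and 6.36 CPM to 34.5, 53.2 and 43.5 CPM, a log2 change of 2.73 ± 0.43 or 6.62-fold (edgeR adjusted p = 0.00285). The spread of Ccr2 inside each group was narrow beside the distance between them. With Ccl3, Ccl4 and Ccl11, 6 of the 9 tested members were called raised and none lowered, where 13.9% of all tested genes were called raised. The median log2 change over the 9 tested members was 2.73, and over all tested genes -0.03. All 6 calls were kept without any single library. The linear-model test limma-voom did not call Ccl3 and Ccl4 (adjusted p = 0.136 and 0.0960), and DESeq2 gave no adjusted p for them.

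The size of the Ccl3 and Ccl4 rise rested on 1 mouse. Ccl3 measured 0.155, 0.111 and 0.374 CPM in Con and 9.53, 442 and 9.35 CPM in DSS. Ccl4 measured 0.103, 0.277 and 0.695 CPM in Con and 10.9, 332 and 10.5 CPM in DSS. In both genes the second DSS library was more than an order of magnitude above the others, yet these others were also above all Con libraries. The log2 change was 9.44 ± 1.82 for Ccl3 (edgeR adjusted p = 0.00608) and 8.34 ± 1.62 for Ccl4 (edgeR adjusted p = 0.00624). Without the second DSS library it was 5.42 for Ccl3 (edgeR adjusted p = 0.00108) and 4.88 for Ccl4 (edgeR adjusted p = 0.00286). The same library held the highest neutrophil marker level of the series, with a sum over 9 markers of 18258 CPM where the other 2 DSS libraries had 902 and 1009 CPM. Cxcr2, a chemokine receptor of neutrophils, measured 20.5, 373 and 20.1 CPM in DSS and at most 0.0517 CPM in Con. Ccl3 held 0.465 to 1.19 reads per Cxcr2 read in DSS, 0.711 to 1.18 in DSS+UA and 0.909 to 3.5 in UA+DSS, and 3 in the 1 Con library with Cxcr2 reads. The part of neutrophil content in the Ccl3 and Ccl4 values was not tested.

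Of the eotaxins, Ccl11 rose, while Ccl24 was low in both groups and was not called. Ccl11 measured 10.3, 23.2 and 23.6 CPM in Con and 104, 49.2 and 124 CPM in DSS. The groups did not overlap, and the log2 change was 2.27 ± 0.45, or 4.84-fold (edgeR adjusted p = 0.00652). Ccl24 measured 1.03, 0.111 and 0.535 CPM in Con and 0.770, 1.503 and 0.898 CPM in DSS. These ranges overlapped, and its log2 difference of 0.90 ± 0.99 had a 95% interval of -1.28 to 3.08 (edgeR adjusted p = 0.522). Over group totals of 63 and 32 counts the Ccl24 ratio was 1.85. Its 95% interval of 1.19 to 2.93 covers counting error only, not the spread between mice. The eotaxin receptor Ccr3 had 1, 0 and 1 counts in Con and 1, 3 and 20 counts in DSS. Most Ccr3 reads of the DSS group came from the third library, which also had the highest Ccl11 level. In DSS+UA, by contrast, Ccr3 was highest in the second library and Ccl11 in the third. Over the group totals, 24 against 2 counts, the ratio was 11.3 with a 95% interval of 2.80 to 98.4 that covers counting error only. Ccl26, the remaining eotaxin of the annotation, had 0 counts in all 12 libraries, which allows up to 0.192 CPM in the shallowest library.

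Transcripts of the 8 eosinophil marker genes were low or absent in all groups, which does not measure the number of eosinophils. Ear1 and Ear6, eosinophil ribonucleases, had 0 counts in all 12 libraries, and Epx, the eosinophil peroxidase, had counts only in the second UA+DSS library at 0.437 CPM. The sum over the 8 eosinophil markers was 5.49 to 13.3 CPM in Con, 6.66 to 9.09 in DSS, 4.84 to 7.44 in UA+DSS and 2.77 to 7.42 in DSS+UA. Of the 4 markers that could be tested, edgeR called 0 in DSS against Con, 1 had an unadjusted p under 0.05, DESeq2 called 1 and limma-voom 0. Prg2, an eosinophil granule protein gene, measured 1.19, 1.22 and 1.44 CPM in Con and 4.86, 3.21 and 1.69 CPM in DSS, without overlap, and its log2 difference of 1.34 ± 0.51 missed the threshold (edgeR adjusted p = 0.0733). The other tested markers differed from Con by 0.98 ± 0.64 for Ear2, -0.59 ± 0.45 for Siglecf and -1.12 ± 1.09 for Alox15. The median over the 4 was 0.19. The highest Con sum came from Alox15, at 10.8 CPM in the first Con library. The part of eosinophil content in the Ccl11 values was not tested.

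Ccl8, a monocyte chemoattractant made by tissue macrophages, and Ccl12, a mouse ligand of Ccr2, varied widely between the mice of each DSS-treated group. Ccl8 measured 7.71, 8.60 and 15.7 CPM in Con, 106, 10.97 and 44.2 CPM in DSS, 72.7, 19.3 and 9.84 CPM in UA+DSS, and in DSS+UA it measured 7.64, 87.3 and 28.6 CPM. Ccl12 measured 0.879, 0.887 and 1.12 CPM in Con, 4.81, 0.802 and 5.18 CPM in DSS, 3.85, 0.875 and 0.585 CPM in UA+DSS, and in DSS+UA it measured 0.737, 4.52 and 2.22 CPM. For both genes the first DSS, first UA+DSS and second DSS+UA libraries were high, the second DSS library was inside or below the Con range, and all groups overlapped. Against Con, the DSS difference was 2.33 ± 1.03 (log2) for Ccl8 (edgeR adjusted p = 0.115) and 1.89 ± 0.86 for Ccl12 (edgeR adjusted p = 0.124), with 95% intervals of 0.06 to 4.60 and -0.0045 to 3.79. DESeq2 called Ccl8 (adjusted p = 0.0271). Ccl8 held 8.53 to 22.1 reads per Ccl12 read over the 12 libraries, while it held 0.286 to 17.2 reads per Ccl2 read.

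C1qb, a complement gene that marks tissue macrophages, was read beside Ccl8 and Ccl12. C1qb measured 38.9, 18.1 and 52.1 CPM in Con, 273, 85.9 and 127 CPM in DSS, 110, 61.4 and 40.8 CPM in UA+DSS, and in DSS+UA it measured 49.6, 197 and 56.3 CPM. The first DSS, first UA+DSS and second DSS+UA libraries were the highest of their groups for C1qb and for Ccl8, while for Ccl12 the third DSS library was slightly above the first. The sum over 10 macrophage markers ranged from 99.2 to 267 CPM in Con, 437 to 1400 in DSS, 198 to 458 in UA+DSS and 213 to 724 in DSS+UA. Not every marker had the order of C1qb. In DSS+UA the sum was 213, 724 and 270 CPM, while Mrc1 measured 22.1, 31.2 and 32.1 CPM and Cd163 5.32, 5.63 and 6.26 CPM. Of the 10 markers, 2 were called lowered in DSS+UA against DSS. The part of macrophage content in the Ccl8 and Ccl12 values was not tested.

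Ccl8 and Ccl12 are also neighbours in the genome (GRCm38). A row of 5 members lies on 1 stretch of the plus strand of chromosome 11 in the order Ccl2 (82035571 to 82037453), Ccl7 (82045712 to 82047525), Ccl11 (82057823 to 82062955), Ccl12 (82101845 to 82103400) and Ccl8 (82115185 to 82116799), with no other protein-coding gene of the annotation between them. Ccl3 (83647844 to 83649355, minus strand) and Ccl4 (83662584 to 83664683, plus strand) are adjacent further along the same chromosome. Ccr3 (124021972 to 124031689) and Ccr2 (124101950 to 124113557) are adjacent on the plus strand of chromosome 9, and Ccl24 lies on the minus strand of chromosome 5 (135569937 to 135573049). RefSeq promoter sequences of the GRCm38.p6 assembly, from 250 bases before the start of transcription to 50 after it, were at hand for 5 of the 10 members, namely Ccl3, Ccl8, Ccl12, Ccr2 and Ccr3. The pair that moved together with the least difference is shown, since both genes carry the letters TATAAA of the TATA box on the strand of the gene, at position -31 for Ccl12 (chr11:82101595-82101894) and -32 for Ccl8 (chr11:82114935-82115234). Capitals mark TATAAA and the GAGGAA core bound by the myeloid factor PU.1, on either strand.
Ccl12: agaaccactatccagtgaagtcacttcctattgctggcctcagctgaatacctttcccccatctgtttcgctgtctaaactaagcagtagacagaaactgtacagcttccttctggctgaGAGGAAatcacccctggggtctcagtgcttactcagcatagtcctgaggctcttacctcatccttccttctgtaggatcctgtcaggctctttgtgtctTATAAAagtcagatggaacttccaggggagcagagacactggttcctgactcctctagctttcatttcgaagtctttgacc
Ccl8: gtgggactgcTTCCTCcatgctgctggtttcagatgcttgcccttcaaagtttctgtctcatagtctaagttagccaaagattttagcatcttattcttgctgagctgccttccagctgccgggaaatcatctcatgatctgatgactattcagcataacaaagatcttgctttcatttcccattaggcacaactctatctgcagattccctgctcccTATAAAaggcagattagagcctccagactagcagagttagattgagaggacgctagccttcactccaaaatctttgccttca
In a global alignment these 2 windows had 180 of 300 bases in common (60%), and the other 9 pairs among the 5 promoters had 49 to 57% in common. TATAAA on either strand was found in 13.6% and GAGGAA in 28.3% of all 32851 promoter windows, and neither the letters of AP-1 (TGANTCA, 7.81% of windows) nor the spaced NF-kappaB or interferon response motifs were found in the 2 windows. Ccl3 had GAGGAA but not TATAAA. These matches describe letters only.

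In mice given UA from before DSS, Ccl2, Ccl3, Ccl4, Ccl7, Ccl11 and Ccr2, the 6 members called raised in DSS, were all called lower than in DSS. Both comparisons use the same DSS libraries. Ccl2 measured 4.23, 1.56 and 5.16 CPM in UA+DSS, below all 3 DSS libraries and above all 3 Con libraries. Against DSS it fell by 3.39 ± 0.55 on the log2 scale, so that DSS was 10.5-fold higher (edgeR adjusted p = 0.00920). Ccl7 measured 5.58, 0.750 and 2.45 CPM and fell by 3.35 ± 0.63 (edgeR adjusted p = 0.0114), with 1 library below the Con range. Ccr2 measured 20.4, 7.93 and 14.4 CPM and fell by 1.62 ± 0.41 (edgeR adjusted p = 0.0227), leaving it between the Con and DSS ranges. Ccl11 measured 19.3, 16.7 and 15.1 CPM, inside the Con range, and fell by 2.43 ± 0.46 (edgeR adjusted p = 0.0113). Ccl3 measured 0.898, 1.25 and 1.06 CPM and Ccl4 2.82, 1.62 and 0.957 CPM, both groups of values between Con and DSS. Ccl3 fell by 7.16 ± 1.58 on the log2 scale and Ccl4 fell by 6.04 ± 1.41 (edgeR adjusted p = 0.0164 and 0.0191). Limma-voom called neither (adjusted p = 0.164 and 0.129), so that it called 4 members. When the second DSS library was left out, Ccl3 fell by 3.13 and Ccl4 fell by 2.58. The 6 of 9 tested members called lowered compare with 10.5% of all tested genes called lowered, and the median log2 change was -3.35 over the tested members and -0.02 over all tested genes.

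Ccl24 and Ccr3 were also scarce in the UA+DSS group. Ccl24 had 2, 0 and 2 counts there, or 0.128, 0 and 0.106 CPM, below the lowest DSS library. Its fitted difference from DSS of -3.63 ± 1.27 missed the threshold (edgeR adjusted p = 0.0661), while DESeq2 called it (adjusted p = 0.0214). Over group totals of 4 and 63 counts the ratio was 0.0752, with a 95% counting interval of 0.0199 to 0.202. Ccr3 had 4, 2 and 0 counts. Ccl8 differed from DSS by -0.66 ± 0.98 (log2), with a 95% interval of -2.82 to 1.501, and Ccl12 by -1.03 ± 0.84, with an interval of -2.87 to 0.81.

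The calls of UA+DSS against DSS changed when single libraries were left out and when a score of colon position entered the model. With only 2 UA+DSS libraries in the fit, the count of 6 became 4 without the first, 2 without the second and 3 without the third. Ccl3 and Ccl4 lost the call in each case, Ccl11 without the second (edgeR adjusted p = 0.0617), and Ccr2 without the second or the third (edgeR adjusted p = 0.0922 and 0.0683) and without the second DSS library (edgeR adjusted p = 0.0609). All 3 UA+DSS libraries had low distal and high proximal Hox gene levels, with a position score of -5.70 to -4.16 against 0.37 to 3.10 in DSS, 4.11 to 5.06 in DSS+UA and -3.03 to 5.53 in Con. With that score in the model, edgeR called 0 members and 3 of all tested genes in UA+DSS against DSS, although the log2 differences were -3.56 for Ccl2, -3.43 for Ccl7, -3.20 for Ccl11 and -1.42 for Ccr2 (edgeR adjusted p = 0.105, 0.124, 0.0931 and 0.234). Early UA and colon position cannot be told apart in these samples.

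Against Con, edgeR called 0 of the 9 tested members in UA+DSS, where 0.00566% of all tested genes were called in either direction. An unadjusted p under 0.05 was reached by 2 members, as by 2132 of all tested genes. DESeq2 called 1 member, Ccl2 (adjusted p = 0.0383), and 376 genes, and limma-voom called 0 members and 0 genes. Ccl2 stood 1.92 ± 0.57 (log2) above Con with a 95% interval of 0.67 to 3.17 (edgeR adjusted p = 0.275), and Ccr2 stood 1.11 ± 0.41 above Con with an interval of 0.21 to 2.01 (edgeR adjusted p = 0.342). Ccl11 differed from Con by -0.16 ± 0.44, with an interval of -1.12 to 0.80. The other members differed from Con by 2.29 ± 1.86 for Ccl3, 2.30 ± 1.53 for Ccl4, 1.06 ± 0.62 for Ccl7, 1.67 ± 1.01 for Ccl8, 0.86 ± 0.87 for Ccl12 and -2.73 ± 1.30 for Ccl24, each with an interval that included 0. The miss of the threshold does not show that these levels were equal.

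**Figure D2:**
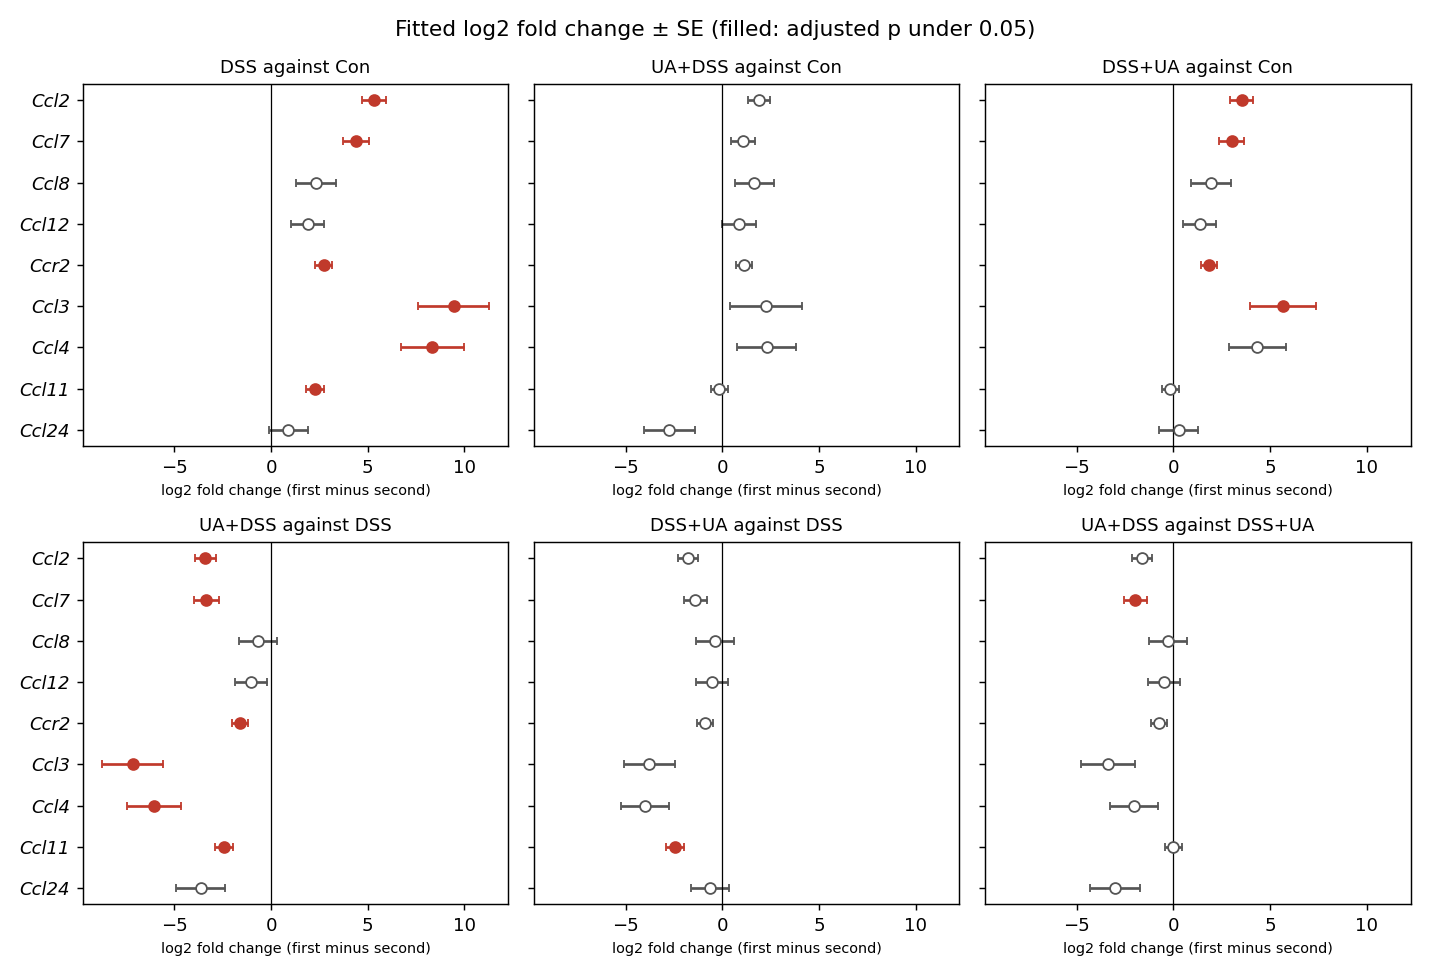
Fitted log2 fold change (first group minus second) with its SE for the 9 tested members in the 6 comparisons, from edgeR with all 12 libraries in 1 fit, filled red where the adjusted p was under 0.05. DSS and DSS+UA had 6 and 4 members called above Con, UA+DSS had 0, and Ccl11 was the member called below DSS in both UA groups.

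In mice given UA after DSS had begun, Ccl11 was called lower than in DSS, and of the monocyte chemoattractants Ccl2 and Ccl7 were called above Con, but not Ccl8 and Ccl12. Ccl11 measured 10.5, 13.1 and 27.8 CPM in DSS+UA, below all DSS libraries and around the Con range. It fell by 2.43 ± 0.46 (log2) against DSS (edgeR adjusted p = 0.0202) and differed from Con by -0.15 ± 0.44, with a 95% interval of -1.12 to 0.81. Ccl11 was the 1 of 9 tested members called lowered, beside 5.0% of all tested genes. Its call was lost without the second DSS+UA library (edgeR adjusted p = 0.0778), with the position score in the model (edgeR adjusted p = 0.0623) and in a fit of these 2 groups alone. With the score, the Ccl11 difference from Con was 0.46 (edgeR adjusted p = 0.602). The DSS+UA scores, 4.11 to 5.06, were all above the DSS scores, 0.37 to 3.10. Late UA and colon position thus cannot be told apart against DSS either.

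Ccl2 measured 5.58, 10.5 and 17.6 CPM in DSS+UA and Ccl7 measured 6.21, 13.1 and 14.9 CPM. For both genes every DSS+UA library was above every Con library and below every DSS library. Their differences from DSS, -1.78 ± 0.52 and -1.39 ± 0.58 (log2), missed the threshold (edgeR adjusted p = 0.0571 and 0.139), with 95% intervals of -2.91 to -0.64 and -2.66 to -0.11. DESeq2 called Ccl2 lowered (adjusted p = 0.00801). Ccr2 measured 12.4, 38.5 and 20.3 CPM and overlapped with DSS in its second library, which was also the highest in C1qb, and its difference from DSS was -0.88 ± 0.40 (edgeR adjusted p = 0.165). Against Con, 4 of 9 tested members were called raised, where 9.13% of all tested genes were. Ccl2 rose by 3.53 ± 0.58 (log2), or 11.6-fold (edgeR adjusted p = 0.00560). Ccl7 rose by 3.02 ± 0.64, or 8.12-fold (edgeR adjusted p = 0.0124), and Ccr2 by 1.84 ± 0.42, or 3.59-fold (edgeR adjusted p = 0.0153). Without the third Con library the Ccr2 call was lost (edgeR adjusted p = 0.0525), and with the position score in the model only Ccl2 was called.

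The eotaxin and the monocyte chemoattractant of the same locus thus had different levels relative to Con in DSS+UA. Per read of Ccl11 there were 0.0406 to 0.0854 reads of Ccl2 in Con, 0.182 to 0.778 in DSS, 0.0933 to 0.342 in UA+DSS and 0.530 to 0.806 in DSS+UA. All 3 DSS+UA ratios were above all Con and UA+DSS ratios and inside or slightly above the DSS range. This difference of ratios was not tested. UA+DSS and DSS+UA share their DSS and Con libraries in these comparisons, so their values stand side by side and are not independent.

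Ccl3 and Ccl4 in DSS+UA spanned the values of the first and the third DSS libraries. Ccl3 measured 12.3, 3.96 and 17.6 CPM and Ccl4 measured 6.16, 3.53 and 12.3 CPM, where those 2 DSS libraries had 9.35 and 9.53 CPM for Ccl3 and 10.5 and 10.9 CPM for Ccl4. Ccl3 rose by 5.68 ± 1.69 (log2) against Con (edgeR adjusted p = 0.0424), a call that held without any 1 DSS library and was lost in the 9 fits that left out another library (edgeR adjusted p up to 0.116) and in limma-voom (adjusted p = 0.293), and Ccl4 stood 4.33 ± 1.48 above Con (edgeR adjusted p = 0.0647). Against DSS the differences were -3.77 ± 1.30 and -4.00 ± 1.25 (edgeR adjusted p = 0.0892 and 0.0701). Without the second DSS library they became 0.27 for Ccl3, the opposite direction, and -0.53 for Ccl4 (edgeR adjusted p = 0.801 and 0.656).

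Of the remaining members in DSS+UA, Ccl24 measured 0, 0.557 and 1.497 CPM and Ccr3 had 1, 14 and 5 counts. Both overlapped with Con and with DSS. Against DSS the log2 differences were -0.38 ± 0.97 for Ccl8, -0.53 ± 0.82 for Ccl12 and -0.62 ± 0.98 for Ccl24. Against Con they were 1.95 ± 1.02 for Ccl8, 1.36 ± 0.86 for Ccl12 and 0.28 ± 1.02 for Ccl24. All 6 had 95% intervals that included 0. Ccr3 was highest in the second library of its group, as were Ccl8, Ccl12 and Ccr2.

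The direct comparison of the UA schedules called 1 of 9 tested members lowered in UA+DSS, where 9.23% of all tested genes were. Ccl7 was 1.96 ± 0.61 lower on the log2 scale in UA+DSS than in DSS+UA, written -1.96 as the fitted difference, or 3.90-fold higher in DSS+UA (edgeR adjusted p = 0.0479). The groups did not overlap. This call held without the second DSS, first UA+DSS or first DSS+UA library, was lost in the other 9 fits without 1 library (edgeR adjusted p up to 0.134), and held in 3 of 8 other settings. Ccl2 differed by -1.62 ± 0.53 (edgeR adjusted p = 0.0563), Ccl3 by -3.39 ± 1.40 (edgeR adjusted p = 0.117) and Ccl4 by -2.04 ± 1.24 (edgeR adjusted p = 0.276), each with groups that did not overlap. Without the second DSS library, Ccl3 and Ccl4 passed the threshold (edgeR adjusted p = 0.00564 and 0.0357). Ccl11 measured 15.1 to 19.3 CPM in UA+DSS and 10.5 to 27.8 CPM in DSS+UA, and these ranges overlapped. The differences of Ccl8, Ccl12, Ccl24 and Ccr2 were -0.28 ± 0.98, -0.49 ± 0.84, -3.01 ± 1.29 and -0.73 ± 0.40 (edgeR adjusted p = 0.865, 0.707, 0.128 and 0.224).

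Across the 12 libraries the members fell into 3 close pairs. Likeness was measured as the mean absolute difference of log2 CPM after each gene was centred on its own mean, so that 0 is an identical course. The smallest values were 0.43 for Ccl8 and Ccl12, 0.53 for Ccl3 and Ccl4 and 0.58 for Ccl2 and Ccl7. Each of these pairs consists of genes of 1 chromosome 11 cluster. Ccl11, although it lies between Ccl7 and Ccl12, had its smallest value with Ccl12 at 0.82 and stood 1.28 from Ccl2. Ccl24 was 1.02 or more from every other member. These values describe libraries that share treatment and tissue makeup and carry no test.

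**Figure D3:**
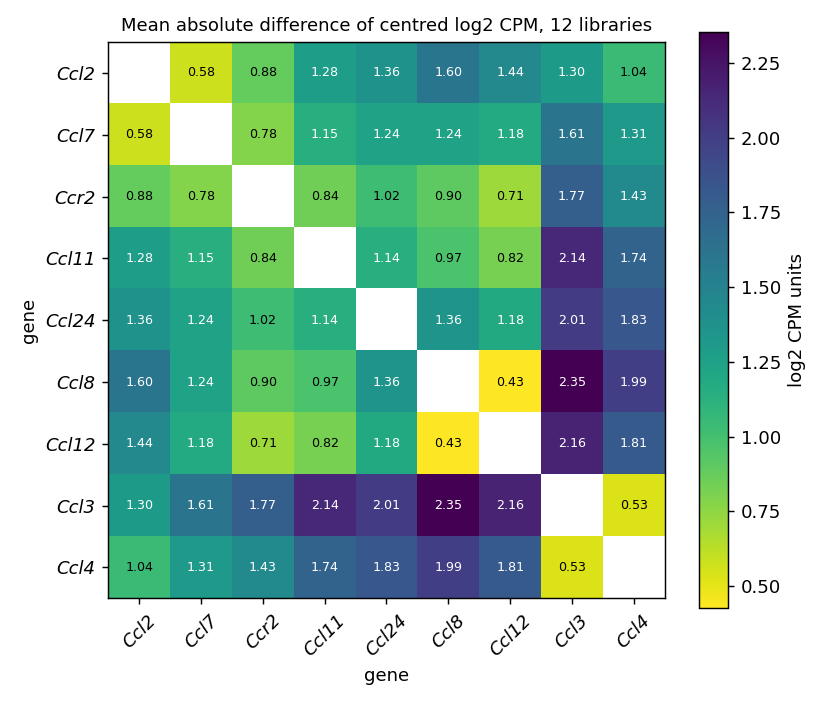
Mean absolute difference of centred log2 CPM between each pair of the 9 tested members over the 12 libraries, in log2 CPM units, where lighter cells mark more similar courses. The pairs Ccl8 and Ccl12 (0.43), Ccl3 and Ccl4 (0.53) and Ccl2 and Ccl7 (0.58) had the lowest values, and Ccl3 stood 2.35 from Ccl8.

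The genes most like single members were taken from 13706 tested genes whose log2 CPM averaged 1 or more. For Ccl2 they were Lgi2 (0.51), Timp1 (0.52) and Pla1a (0.59), of which Timp1 encodes an inhibitor of matrix metalloproteinases. For Ccl11 they were Stc1 (0.44), Npr3 (0.46) and Mmp2 (0.47), of which Mmp2 encodes a gelatinase made by stromal cells. For Ccl3 they were Hdc (0.45), the histamine-forming enzyme, Il1a (0.56), a cytokine of the interleukin 1 family, and Fpr1 (0.59), a formyl peptide receptor of phagocytes. For Ccr2 they were Dok2 (0.30), Fabp5 (0.30) and Hsd11b1 (0.32). For Ccl24 they were Gm14005, Prr7 and Lrrk2 at 0.68 to 0.69, so no gene came close. Ccr3 had too few counts for this measure.

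Other CC chemokine genes and the atypical chemokine receptors moved in part with the members. Of 13 other CC and atypical chemokine receptors, all tested, 10 were called raised and 0 lowered in DSS against Con, with a median log2 change of 2.50. The shares of all tested genes there were 13.9% raised and 12.6% lowered. In UA+DSS against DSS, 6 were lowered, and in DSS+UA against DSS, 3 were. The 3 were the atypical receptors Ackr1, Ackr2 and Ackr3, which bind chemokines without classical signalling. Ackr3 measured 24.5, 19.0 and 20.6 CPM in Con, 48.3, 37.8 and 41.6 in DSS, 15.9, 13.7 and 12.2 in UA+DSS and 14.1, 18.9 and 15.3 in DSS+UA. It rose by 0.99 ± 0.18 (log2) in DSS (edgeR adjusted p = 0.00413) and fell by 1.61 ± 0.18 and 1.40 ± 0.18 with early and late UA (edgeR adjusted p = 0.00398 and 0.00504). Every UA library was below every Con library, although neither difference from Con was called (edgeR adjusted p = 0.272 and 0.122). Ackr1 and Ackr2 fell by 1.51 ± 0.36 and 2.003 ± 0.47 in DSS+UA against DSS (edgeR adjusted p = 0.0363 and 0.0343). Both calls were lost with the position score (edgeR adjusted p = 0.0704 and 0.0715) and with a replicate block (edgeR adjusted p = 0.0579 and 0.0563). They held in 5 and 6 of the 12 fits without 1 library. Ackr4, another atypical receptor, was lower in DSS+UA than in Con by -2.24 ± 0.56 and higher in UA+DSS than in DSS+UA by 2.27 ± 0.57 (edgeR adjusted p = 0.0228 and 0.0227). With the position score these were -1.53 and 0.85, and both calls were lost (edgeR adjusted p = 0.108 and 0.732).

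Ccr1, a receptor of Ccl3, measured 8.43, 3.88 and 9.89 CPM in Con, 52.1, 293 and 46.2 in DSS, 23.8, 7.81 and 8.35 in UA+DSS and 15.0, 25.2 and 21.8 in DSS+UA. Like its ligand it was highest in the second DSS library. It fell by 3.29 ± 0.77 (log2) in UA+DSS against DSS (edgeR adjusted p = 0.0191). Without single libraries this difference was -4.01 to -1.89. The Ccr1 call held in 10 of 12 such fits and in 4 of 8 other settings. Ccr7, the receptor that guides dendritic cells and T cells to lymph nodes, was called raised in DSS+UA against Con by 2.74 ± 0.69 (edgeR adjusted p = 0.0224) and lower in UA+DSS than in DSS+UA by -2.79 ± 0.69 (edgeR adjusted p = 0.0227). Both Ccr7 calls were lost in limma-voom (adjusted p = 0.0815 and 0.0858) and with the position score (edgeR adjusted p = 0.114 and 0.665), where the second difference was -1.49. Ccr4, a receptor of T cells, was called above Con in DSS+UA by 2.49 ± 0.71 (edgeR adjusted p = 0.0343). That call was lost in limma-voom (adjusted p = 0.0514) and with a replicate block (edgeR adjusted p = 0.0616). In UA+DSS against DSS, the calls of Ackr3, Ccr7 and Ccr1 were lost with the position score (edgeR adjusted p = 0.0726, 0.190 and 0.210). Of 13 other CC ligands, 8 could be tested in DSS against Con, of which 3 were raised and 2 lowered. Of all tested genes, 13.9% were called raised and 12.6% lowered in that comparison. The macrophage chemokine Ccl9 rose by 1.95 ± 0.44 (edgeR adjusted p = 0.0110) and Ccl22, a ligand of Ccr4, rose by 1.999 ± 0.54 (edgeR adjusted p = 0.0215), while Ccl28, a chemokine of mucosal epithelium, fell by 1.53 ± 0.45 (edgeR adjusted p = 0.0300). Ccl22 fell by 2.13 ± 0.55 in UA+DSS against DSS (edgeR adjusted p = 0.0248), a call that was lost with the position score (edgeR adjusted p = 0.252).

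Some marker lists of other cell types moved with the members. In DSS against Con, 8 of 12 monocyte markers, 8 of 9 neutrophil markers, 7 of 10 macrophage markers and 6 of 7 fibroblast markers were called raised, and 0 lowered in these lists. The share of all tested genes called raised was 13.9%. In UA+DSS against DSS, 9, 8, 4 and 5 of them were lowered, beside 10.5% of all tested genes. In DSS+UA against DSS, 4, 0, 2 and 3 of them were lowered, beside 5.0% of all tested genes. Of 7 tested mast cell markers, 4 were raised in DSS against Con, and 0 were lowered in UA+DSS against DSS. In DSS against Con, 0 smooth muscle and 0 eosinophil markers were called. The sum of the monocyte markers was 1004 to 1122 CPM in Con, 1812 to 2062 in DSS, 1216 to 1401 in UA+DSS and 1352 to 3183 in DSS+UA. Plac8 made up most of this sum in every Con, UA+DSS and DSS+UA library, but not in DSS. It measured 686, 926 and 642 CPM in Con and 777, 533 and 864 CPM in DSS. In UA+DSS it measured 994, 1043 and 848 CPM, and in DSS+UA 1033, 2747 and 1429 CPM. Its log2 difference in DSS against Con was -0.05 ± 0.34 (edgeR adjusted p = 0.921). Plac8 was the 1 monocyte marker called raised in DSS+UA against DSS, where 4 of 12 were lowered. F13a1, a transglutaminase gene of monocytes and macrophages, measured 9.53, 10.8 and 11.8 CPM in DSS+UA against 126, 99.9 and 76.5 CPM in DSS. The sum of the fibroblast markers was 1077 to 1838 CPM in Con, 3258 to 6984 in DSS, 615 to 1652 in UA+DSS and 965 to 2362 in DSS+UA. Ccl11 held 0.0370 to 0.128 reads per read of the collagen gene Col1a2 in Con, 0.0935 to 0.195 in DSS, 0.0484 to 0.173 in UA+DSS and 0.0316 to 0.108 in DSS+UA, ranges that overlapped. Colon epithelium markers moved the other way, with a sum of 9075 to 22536 CPM in Con, 4787 to 10526 in DSS, 18850 to 23017 in UA+DSS and 10250 to 14923 in DSS+UA. The DSS and UA+DSS sums did not overlap, while the Con and DSS sums did. The first Con library, with a position score of 5.53, had a sum of 9075 CPM. The second and the third, with scores of -3.03 and -1.83, had 22536 and 16428.5 CPM. The UA+DSS scores were -5.70 to -4.16, and the part of colon position in these sums was not tested. Of 8 epithelium markers 2 were lowered in DSS against Con, and 3 were raised in UA+DSS against DSS. The shares of all tested genes were 12.6% and 8.21%. The part of monocyte, fibroblast and epithelial content in the Ccl2, Ccr2 and Ccl11 values was not tested.

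**Figure D4:**
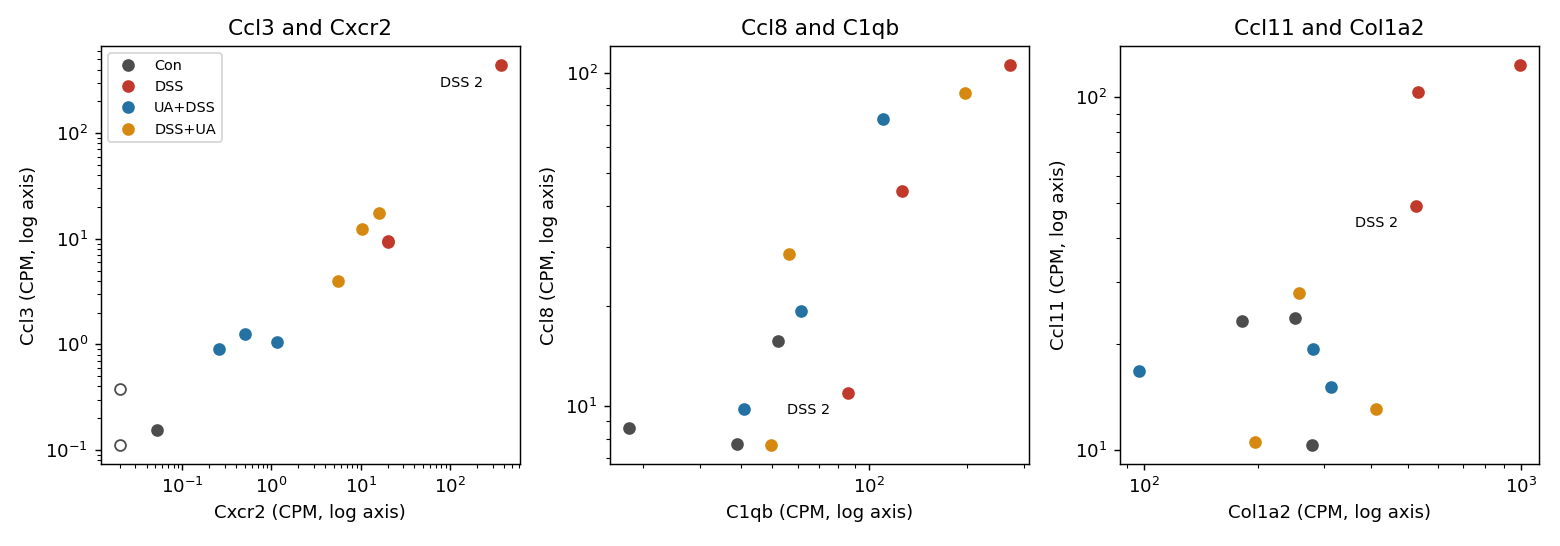
Level of Ccl3 against the neutrophil receptor Cxcr2, Ccl8 against the macrophage gene C1qb and Ccl11 against the fibroblast gene Col1a2 in each of the 12 libraries, in CPM on log axes, coloured by group, with open circles for Con libraries with 0 Cxcr2 counts and the second DSS library marked. Ccl3 and Cxcr2 were both highest in that library (442 and 373 CPM), where Ccl8 was at 10.97 CPM, and the first and the third DSS libraries lie on top of each other for Ccl3.

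The libraries held 15566216 to 19498383 counts each, and no pair of libraries of 1 group agreed within sampling noise. All 8 colon epithelium markers were present in all libraries. Ccl2 has an annotated gene, Gm17268, on the opposite strand without exon overlap, and that gene had at most 2 counts. Of the 50-base stretches of Ccr2 exons, 1.91% also occurred in other transcripts, and none did for the other 9 members.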

How the data were processed

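RNA from colon tissue of 12 mice, 3 per group, was read from 12 tables of read counts per Ensembl gene as deposited by the authors, 1 per library. Per the labels, libraries were made with an Illumina TruSeq kit, and the submitters' processing notes name FastQC, HISAT2, Cuffdiff and the GRCm38 build. The methods say that Hisat2 gave the counts. Its strand setting, the tool versions and the annotation release: not given in the sources used. Symbols, exon lengths and coordinates came from the GENCODE annotation of GRCm38. Libraries held 15566216 to 19498383 counts, so the precision of low genes is limited by counting, and a count of 0 allows up to 3 counts.

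Counts were filtered with filterByExpr, scaled by TMM (factors 0.871 to 1.09) and tested with the quasi-likelihood test of edgeR 4.0.16 (R 4.3.3) in 1 fit of all 4 groups without covariates, with p-values adjusted by Benjamini-Hochberg across the 17658 genes tested, called under 0.05. The biological coefficient of variation was 0.352. Intervals are 95%. CPM and RPKM use the TMM-scaled library sizes, and log2 CPM adds a prior count of 2. Named genes were all 10 members, the 3 genes of smallest p among those called in each list of other CC ligands, other CC receptors and type 2 genes (Hox genes are given by their score only), and the 3 genes of most similar course for Ccl2, Ccl3, Ccl11, Ccl24, Ccr2 and Ccr3 (Ccr3 was not tested). Cxcr2, C1qb, Mrc1, Cd163, Col1a2, Ccl26, Epx, Ear1, Ear2, Ear6, Prg2, Siglecf, Alox15, Plac8 and F13a1 were named after values had been seen. Members and lists were chosen with earlier results of these data known.

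Alternatives were DESeq2 1.42.0, limma-voom (limma 3.58.1), no scaling beyond library size, no filter, at least 10 counts in every sample, fits of the 2 groups compared, a replicate block, a colon position score (Hox genes Hoxb13 and Hoxd10 to Hoxd13 minus Hoxb3 to Hoxb8) as covariate, and leaving out each of the 12 libraries. The edgeR script was tested on simulated counts. Promoter motifs were searched as exact letters on both strands.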

Additional observations from a re-analysis of the deposited data

Results flagged for a closer look

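Ccl7 was flagged because the effects of the early and the late UA schedule differed by a direct test. Against DSS, Ccl7 changed by -3.35 on the log2 scale in UA+DSS and by -1.39 in DSS+UA, and the difference of these effects was -1.96 ± 0.61 (edgeR adjusted p = 0.0479). Ccl7 was lower in 3 of 3 UA+DSS mice than in any DSS+UA mouse, as were Ccl2, Ccl3 and Ccl4, which were not called. The Ccl7 call was kept in 3 of 12 fits without 1 library and in 3 of 8 other settings. With the colon position score in the model the difference was -2.09 (edgeR adjusted p = 0.513), so schedule and colon position cannot be told apart.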

How the results depend on the processing

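Under 8 settings and 12 fits without 1 library each, 598 of 689 recomputed values of 35 member results kept their direction and their side of the threshold, 57 lost a call, 25 gained one and 9 changed sign. The 30 results of other named genes gave 594 values, of which 127 lost the call and 0 changed sign. The count of 6 members raised in DSS against Con was 4 to 6 in all settings.

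In UA+DSS against DSS the count of 6 was 0 with the position score as covariate and 2 to 7 without single libraries. In DSS+UA against DSS the count of 1 was 2 with DESeq2, 2 with library size only and 2 with at least 10 counts in every sample, 0 with the position score, 0 with only the 2 groups compared, and 0 to 3 without single libraries (0 without the second DSS+UA library, 3 without the first or the third DSS library). In UA+DSS against Con the count of 0 was 1 with DESeq2. In DSS+UA against Con the count of 4 was 1 with the position score and 2 to 5 without single libraries. In UA+DSS against DSS+UA the count of 1 was 2 with DESeq2 and 2 with only the 2 groups compared, 0 with library size only, 0 without a filter, 0 with the position score, and 0 to 3 without single libraries (3 without the second DSS or the first DSS+UA library). The cause of these changes was not tested, except that the fits with fewer libraries have fewer samples.

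Values that changed sign were those of Ccl8 in UA+DSS against DSS (-1.88 to 0.29 without single libraries), Ccl3 in DSS+UA against DSS (-4.31 to 0.27), Ccl11 in UA+DSS against Con (-0.46 to 0.0195) and Ccl11 in DSS+UA against Con (-0.68 to 0.12, and 0.46 with the position score). None of them was called.

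Replicate numbers did not pair the libraries: deviations from the group means correlated at -0.216 to 0.187 between libraries of 1 number, over 0.1 in 5 of 18 pairs, and 5 of 12 libraries were closest to 1 of their own number. With a replicate block 5 members were called in UA+DSS against DSS, without Ccl4 (edgeR adjusted p = 0.0565), and in UA+DSS against DSS+UA Ccl2 was called and Ccl7 was not. The block took the genes called in DSS+UA against DSS from 1331 to 552. With the position score 199 genes were called there, 3 in place of 3300 in UA+DSS against DSS, and 0 in place of 2961 in UA+DSS against DSS+UA. DESeq2 called 3126 genes in DSS+UA against DSS and 376 in place of 1 in UA+DSS against Con. Fits of only the 2 groups called 2131 in place of 4688 genes in DSS against Con, 2035 in place of 3193 in DSS+UA against Con, and 430 and 2072 genes for late and early UA against DSS. Library size scaling put the median log2 change of all genes at -0.11 in DSS+UA against DSS and -0.12 in UA+DSS against DSS, where TMM gave 0.02 and -0.02. Depth limits Ccl24 and Ccr3, whose group totals were 63 counts or fewer.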

Other observations

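Genes of the type 2 cytokine system, which supports eosinophils and mast cells, were measured beside the eotaxins. Of 12 such genes 8 could be tested. Of these, 5 were raised in DSS against Con, 5 lowered in UA+DSS against DSS and 3 lowered in DSS+UA against DSS. In each comparison 0 were called in the opposite direction. In the same order, 13.9% of all tested genes were called raised, 10.5% lowered and 5.0% lowered. Il33, an alarmin cytokine, measured 8.999, 2.66 and 4.06 CPM in Con, 75.4, 91.9 and 89.8 in DSS, 12.4, 6.56 and 10.2 in UA+DSS and 24.2, 9.71 and 25.9 in DSS+UA. All DSS libraries were above all others. Il33 rose by 4.03 ± 0.50 (log2) in DSS against Con (edgeR adjusted p = 0.00135), fell by 3.14 ± 0.48 in UA+DSS and by 2.10 ± 0.46 in DSS+UA against DSS (edgeR adjusted p = 0.00800 and 0.0285), and was called above Con in DSS+UA by 1.93 ± 0.46 (edgeR adjusted p = 0.0199). The receptor genes Il4ra and Csf2rb rose in DSS against Con by 2.81 ± 0.44 and 4.88 ± 0.78 (edgeR adjusted p = 0.00295 and 0.00322), and both were highest in the second DSS library, at 544 and 458 CPM. Against DSS, Csf2rb fell by 3.41 ± 0.72 in UA+DSS (edgeR adjusted p = 0.0151, and 0.185 with the position score), and in DSS+UA Il4ra fell by 1.64 ± 0.42 and Csf2rb fell by 2.73 ± 0.70 (edgeR adjusted p = 0.0431 and 0.0446), calls that limma-voom and the fit with the position score did not make in DSS+UA. Without single libraries the Csf2rb difference from DSS was -3.86 to -1.94 in UA+DSS and -3.16 to -1.24 in DSS+UA. That of Il4ra was -1.92 to -0.83 in DSS+UA. Il5 and Il13, the cytokines that sustain eosinophils and drive mucus production, were at or below 0.155 CPM in all libraries.

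Il5ra, a subunit of the interleukin 5 receptor, measured 0.465, 0 and 0.267 CPM in Con, 12.1, 38.4 and 13.3 in DSS, 0.257, 0.875 and 3.30 in UA+DSS and 14.4, 7.79 and 12.0 in DSS+UA. It was high in all DSS and DSS+UA libraries and low in all others. It was called above Con in DSS+UA by 5.49 ± 1.03 (edgeR adjusted p = 0.00855), in all 12 fits without 1 library too, and below DSS in UA+DSS by -3.82 ± 0.89 (edgeR adjusted p = 0.0186). It was also called below DSS+UA in UA+DSS by -2.92 ± 0.86 (edgeR adjusted p = 0.0425), a call that 6 of those 12 fits kept. With the colon position score in the model, the Il33 calls were lost in UA+DSS against DSS (log2 difference -2.09, edgeR adjusted p = 0.109) and in DSS+UA against Con (1.37, edgeR adjusted p = 0.0803). So were the Il5ra calls in UA+DSS against DSS (-2.40, edgeR adjusted p = 0.386) and against DSS+UA (-0.76, edgeR adjusted p = 0.914). Ccl11 had overlapping ranges in UA+DSS and DSS+UA.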
